A study of Mus musculus with 8 samples.

Results

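The genes examined here encode the subunits, activators and assembly factors of the proteasome, measured by RNA-seq in the medial prefrontal cortex of mice. They were chosen by name: protein-coding genes whose symbols begin with Psma, Psmb, Psmc, Psmd, Psme, Psmf or Psmg, with at least 10 reads in each of the 8 libraries. This gave 48 of the 54532 genes in the count table, out of 50 protein-coding genes with such names. The libraries came from adult male C57BL/6 mice in a study of retrieval of a conditioned place preference, a memory that ties a place to a drug, methamphetamine in this study. The retrieval group and the non-retrieval group had 4 libraries each, and every library mixed tissue from 2 to 3 mice, collected 1 h after the preference test. The labels give the tissue as brain and give no drug dose, no age beyond adult, and no account of what the non-retrieval mice underwent. A difference between groups is a difference between pools, and less RNA per cell cannot be told apart from fewer cells of a type.

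The proteasome is the large protease that degrades proteins tagged with ubiquitin. Its core particle is a barrel in which outer alpha rings gate the entrance and inner beta rings carry the protease sites, and its regulatory particle recognises, unfolds and feeds in tagged proteins. Interferon induces alternative catalytic subunits and the activator PA28, which together make the immunoproteasome, a form known for producing peptides for MHC class I. In neurons, proteasomes act at synapses, and inhibitors of the protease are known to alter memory after retrieval.

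The 48 genes comprised 14 core subunits, 17 regulatory particle subunits, 6 immunoproteasome genes, 7 assembly chaperones and 3 other activators or inhibitors. The remaining member, Psmc3ip, shares only its name with the family and encodes a factor of meiotic recombination. Psma8, a testis-specific alpha subunit with 3 to 15 reads per library, and Psmb11, the thymus-specific catalytic subunit with 0 to 10 reads, did not meet the read minimum. Psmb9, with 20 to 39 reads, was the member closest above it. All 48 passed the filter on low counts and were among the 16745 genes tested.

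Library totals ran from 25013503 to 29547978 reads, with 23474 to 24671 genes detected. Among the marker lists, the summed level of 6 excitatory neuron markers was 5512 to 5999 CPM (CPM are counts scaled to library size) in the non-retrieval group and 5186 to 6225 CPM in the retrieval group. The 6 lymphocyte markers had at most 10 reads in any library, and Cd3g had none. The oligodendrocyte markers moved with the groups: 4 of 6 were called higher, and their sum was 2855 to 3388 CPM without retrieval and 3483 to 5108 CPM with it. Of the inhibitory neuron markers 1 of 6, Pvalb, was called lower, and none of the 6 markers each of excitatory neurons, astrocytes, microglia, endothelium and striatal projection neurons was called by edgeR. Of the striatal markers, however, an unadjusted p under 0.05 was found for 4 of 6, with 1 call in DESeq2 and 0 in limma-voom, a median log2 fold change of 0.33 and a sum of 142 to 185 CPM without retrieval and 149 to 281 CPM with it. Their gene Drd2 was at 7.45 CPM in retrieval library 2 and at 1.21 to 2.18 CPM in the other 7 libraries. Without retrieval library 2, edgeR called 0 proteasome genes and their median log2 fold change was -0.07, as with it. The other 4 lists had 1 marker each with an unadjusted p under 0.05, of which DESeq2 called 0 and limma-voom 3. The part of cell composition in the proteasome values was not tested.

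None of the 48 proteasome genes was called changed by edgeR's quasi-likelihood test at an adjusted p under 0.05, in either direction. In the same fit 4.57% of all tested genes were called, 3.67% higher and 0.902% lower in the retrieval group. A single member, Psmf1, had an unadjusted p under 0.05, against 18.5% of all tested genes. DESeq2, which called 6.3% of all tested genes, called 0 members. Limma-voom with quality weights, which called 9.67%, called 1 member, again Psmf1. Negative log2 fold changes were found for 42 of the 48 members (87.5%) and for 52.2% of all tested genes. The sizes were small: the median was -0.07 on the log2 scale for the members and -0.01 for all genes, and the members ran from -0.40 to 0.11. Without non-retrieval library 3 the median of the members was -0.043. The 95% interval of the change contained 0 for 47 of 48 members. With gene length and GC content as an offset, 34 of the 48 were negative, beside 53.3% of all genes, and their median was -0.036.

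**Figure D1:**
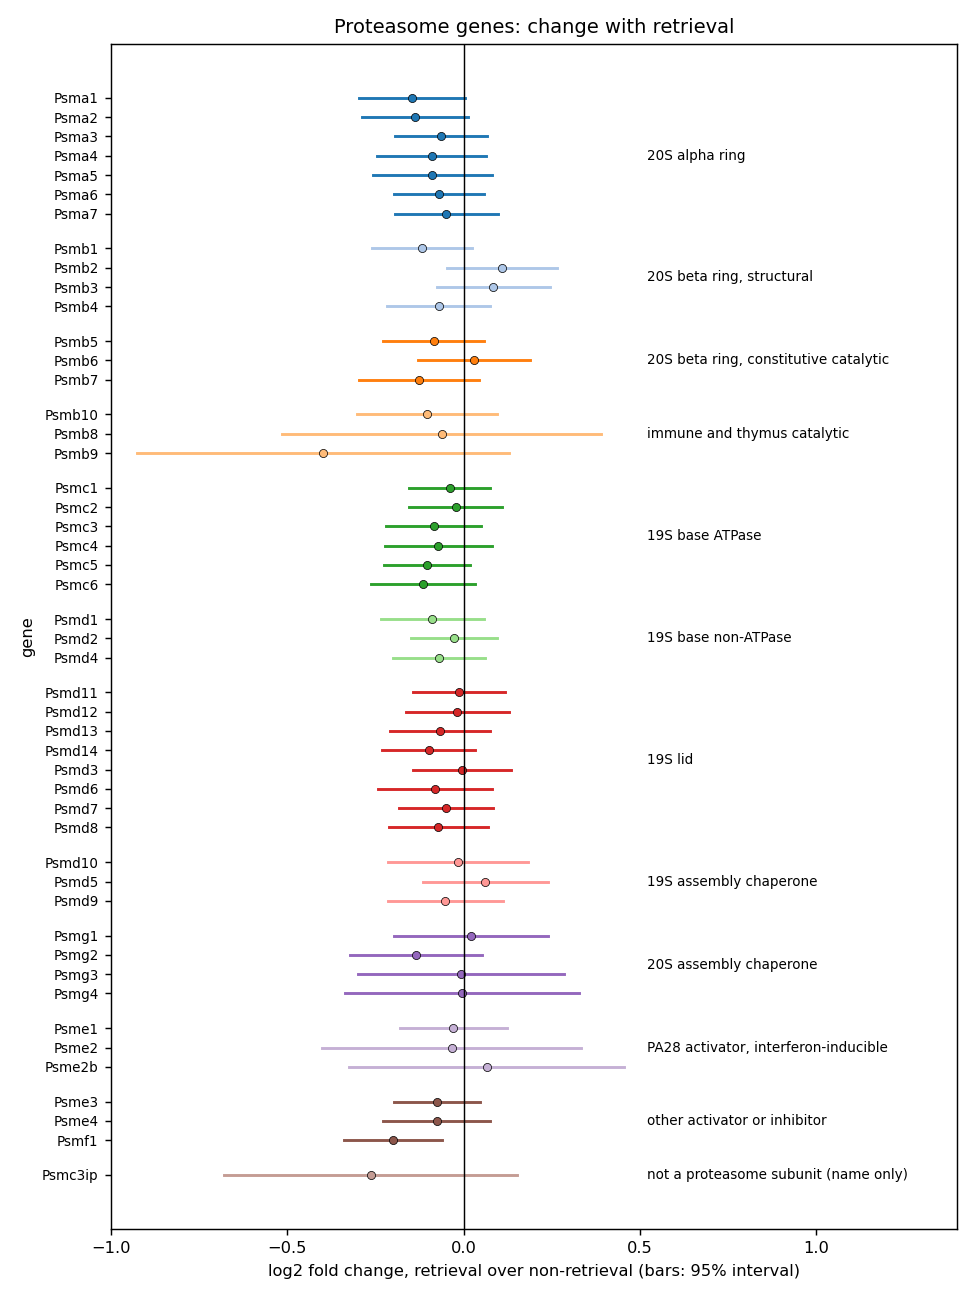
Log2 fold change of each of the 48 proteasome genes, retrieval over non-retrieval, grouped and coloured by role, with points for the edgeR estimate and bars for its 95% interval. Most points lie a little left of 0, the bars of all but Psmf1 cross 0, and the widest bars belong to the low-count genes Psmb9, Psmc3ip and Psmb8.

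The differences among the core particle genes were small. Of these 14 genes, 11 had negative values, the median log2 fold change was -0.08 (-0.033 with the length and GC offset), and every 95% interval lay between -0.30 and 0.26. The smallest adjusted p among them was 0.282. Summed per kilobase of gene model, core genes stood at 452, 428, 468 and 480.4 CPM per kb in the 4 non-retrieval libraries and at 439, 439, 424 and 454 in the retrieval libraries. The groups overlapped (457 ± 22.5 against 439 ± 12.1 CPM per kb, SD, n = 4 each).

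Among the alpha subunits, which form the gated outer rings, all 7 had negative log2 fold changes with a median of -0.09. Psma1 had the smallest p of this ring. Its level was 64.2, 59.98, 64.7 and 64.2 CPM in the non-retrieval libraries and 64.3, 52.8, 53.2 and 58.2 CPM in the retrieval libraries. Retrieval libraries 2, 3 and 4 were below every non-retrieval library, and retrieval library 1 was level with them. The log2 fold change of Psma1 was -0.15 (SE 0.07, edgeR adjusted p = 0.282). Psma2, its neighbour in the ring's order of p, had -0.14 with an adjusted p of 0.315, and the other 5 alpha genes lay between -0.09 and -0.05.

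The structural beta subunits, which have no active site, were mixed in sign. Psmb2 and Psmb3 had positive values, 0.11 and 0.08, and Psmb1 and Psmb4 negative ones, -0.12 and -0.07. Psmb1, the one with the smallest p, stood at 100.6, 85.4, 97.5 and 102 CPM without retrieval and at 91.3, 84.2, 90.5 and 89.3 CPM with it. Its groups overlapped through non-retrieval library 2, and its adjusted p was 0.366.

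The constitutive catalytic subunits carry the protease sites of the standard proteasome. Psmb5, the chymotrypsin-like subunit, was measured at 70.1, 66.3, 77.7 and 77.2 CPM in the non-retrieval group and 70.7, 66.4, 65.6 and 71.9 CPM in the retrieval group. Psmb6, the caspase-like subunit, was at 68.5, 67.1, 68.4 and 74.4 CPM and then at 61.3, 76.0, 68.9 and 78.0 CPM. Psmb7, the trypsin-like subunit, was at 66.6, 62.1, 55.1 and 68.1 CPM and then at 62.5, 53.1, 52.8 and 62.2 CPM. Each of these genes had overlapping groups. Their log2 fold changes were -0.09 for Psmb5, 0.03 for Psmb6 and -0.13 for Psmb7, with adjusted p of 0.538, 0.875 and 0.424. The exons of Psmb7 share 405 bases with the opposite-strand gene Nek6, which had 633 to 845 reads per library. The counting strand is not given in the sources used here. In all, 6 members share exonic bases with an opposite-strand gene of 10 or more reads in each library. In the regulatory particle these were Psmd13 (342 bases with Sirt3, 929 to 1304 reads) and Psmc3 (215 bases with Slc39a13, 394 to 527 reads).

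The regulatory particle genes all had negative log2 fold changes, 17 of 17, with a median of -0.07 and a range from -0.11 to -0.01. The median was -0.036 without non-retrieval library 3, -0.045 without non-retrieval library 4 or retrieval library 3, and -0.041 with the length and GC offset. None was called by edgeR, none had an unadjusted p under 0.05, and DESeq2 and limma-voom also called 0. Every 95% interval lay between -0.26 and 0.13. Their summed level per kilobase was 607, 609.8, 640.3 and 642 CPM per kb in the non-retrieval libraries and 598, 605, 582 and 604 CPM per kb in the retrieval libraries. The groups did not overlap, but the gap between 605 and 607 was narrow, and the means of 625 ± 19.1 and 597 ± 10.8 CPM per kb (SD, n = 4) differed by -4.43%. Of the parts described below, the ATPase sum had groups that did not overlap (312 to 332 against 298 to 310 CPM per kb). The separation of both sums depended on the ATPase gene Psmc5, at 118 CPM per kb the highest of all members. Psmc5 was the 1 regulatory gene of 17 whose own groups did not overlap. The sum of the 3 other activators or inhibitors was also apart (45.5 to 48.2 against 42.4 to 45.4 CPM per kb). The groups overlapped for the sums of the non-ATPase base and of the lid. These sums were not tested.

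**Figure D2:**
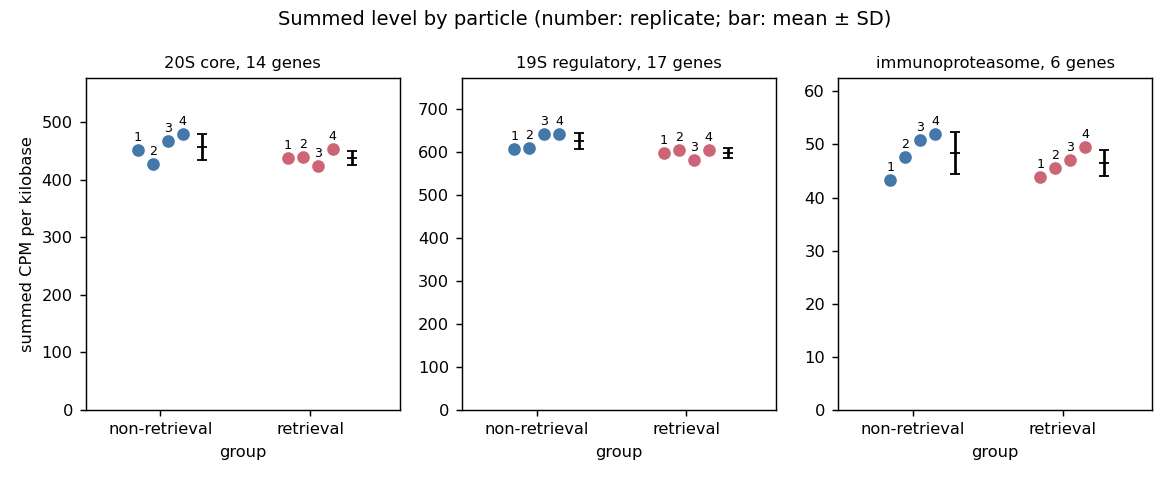
Summed level of the core, regulatory and immunoproteasome genes in CPM per kilobase of gene model, with 1 point per library and the mean and SD over 4 libraries for each group. The retrieval libraries lie below the non-retrieval libraries for the regulatory particle (582 to 605 against 607 to 642), a separation that depended on Psmc5. The groups overlap for the core particle and the immunoproteasome.

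The regulatory base holds a ring of ATPases that unfold the substrate. All 6 ATPase genes were negative, with a median of -0.08. Psmc5 had the highest level per length of all members, 118 CPM per kb. It was at 167, 168, 165 and 179.7 CPM in the non-retrieval group and at 156, 162, 153 and 162 CPM in the retrieval group. Every retrieval library was below every non-retrieval library, yet the log2 fold change was -0.10 (SE 0.06, 95% interval -0.23 to 0.02) with an adjusted p of 0.353. Psmc5 and Psmf1 were the members whose groups did not overlap, 2 of 48, both lower with retrieval, beside 4.53% of all tested genes lower in this way. Psmc1 had the least spread over the 8 libraries of any member, from 134 to 140.3 CPM, a coefficient of variation of 1.88%. Psmc6 had the most negative value of the ring, -0.11, with an adjusted p of 0.403.

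The non-ATPase base subunits Psmd1, Psmd2 and Psmd4 form the scaffold and a ubiquitin receptor. Psmd2, the member with the most reads, averaged 249 CPM over the 8 libraries and had a log2 fold change of -0.03. Psmd1 was at 109.6, 100.2, 99.1 and 100.5 CPM without retrieval and at 109.1, 92.7, 91.7 and 91.4 CPM with it. Library 1 was the highest of each group, and the adjusted p of Psmd1 was 0.531. The lid, 8 genes with a median of -0.06, contains Psmd14, the enzyme that cuts the ubiquitin chain off the substrate. Psmd14 was at 67.6, 62.7, 71.8 and 69.3 CPM and then at 65.0, 63.0, 60.7 and 64.6 CPM, with overlapping groups, a log2 fold change of -0.10 (SE 0.06) and an adjusted p of 0.422.

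The immunoproteasome genes were also without a call: edgeR, DESeq2 and limma-voom each called 0 of 6, and edgeR gave 0 an unadjusted p under 0.05. Of these genes 5 were negative, with a median of -0.05 that ran from -0.14 without non-retrieval library 1 to 0.0014 without non-retrieval library 4. Most of their estimates were looser than those of the standard subunits, with 95% intervals reaching from -0.93 to 0.46. The median biological coefficient of variation was 0.160 in this class and 0.0691 in the regulatory class. It was 0.157 for Psmb8 and 0.162 for Psmb9, the genes of the class with the fewest reads. For Psme2 and Psme2b, near-identical copies described below, it was 0.163 and 0.169, and 0.0765 for their summed reads. Psme1 had 0.0708 and Psmb10 0.0940. The difference in log2 fold change between the core, regulatory and immunoproteasome classes was not tested.

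Psmb8, which takes the place of Psmb5, was scarce: 1.34, 1.45, 1.75 and 2.09 CPM in the non-retrieval libraries and 1.31, 1.70, 1.49 and 1.85 CPM in the retrieval libraries. Psmb9, which takes the place of Psmb6, had the lowest level per length of all members, 0.284 CPM per kb. It was at 1.37, 0.925, 1.25 and 1.18 CPM without retrieval and at 1.01, 0.781, 1.07 and 0.724 CPM with it. Psmb10, which takes the place of Psmb7, was far more abundant, at 36.4, 41.7, 48.6 and 49.5 CPM and then at 36.5, 40.4, 42.9 and 44.3 CPM. Groups overlapped for all 3. Psmb9 had the most negative log2 fold change of all members, -0.40, but with 20 to 39 reads its SE was 0.25, its 95% interval was -0.93 to 0.13 and its adjusted p was 0.419. Its exons share 212 bases with the opposite-strand gene Tap1, which itself had 47 to 84 reads. Psmb8 (-0.06, SE 0.21) and Psmb10 (-0.10, SE 0.09) had adjusted p of 0.910 and 0.598.

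Set against the constitutive subunit that it replaces, each immune catalytic gene gave a ratio of levels per length. Psmb8 stood at 0.611% to 0.888% of Psmb5 over the 8 libraries, and Psmb9 at 0.475% to 1.03% of Psmb6. Psmb10 was at 109.7% to 177% of Psmb7. The last ratio depends on the gene length used, because the deposited model of Psmb7 is 3421 bases and its principal transcript 1160 bases. With principal transcript lengths Psmb10 was at 48.4% to 78.0% of Psmb7. Psmb10 was thus above its counterpart in every library by the deposited lengths and below it in every library by the principal transcript lengths. Psmb8 and Psmb9 were at 0.475% to 1.49% of theirs by either length. The groups overlapped in every ratio: 0.743 ± 0.108% against 0.761 ± 0.110% for Psmb8, 0.868 ± 0.140% against 0.660 ± 0.186% for Psmb9, and 142 ± 27.8% against 144 ± 19.6% for Psmb10 (non-retrieval against retrieval, SD, n = 4).

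**Figure D3:**
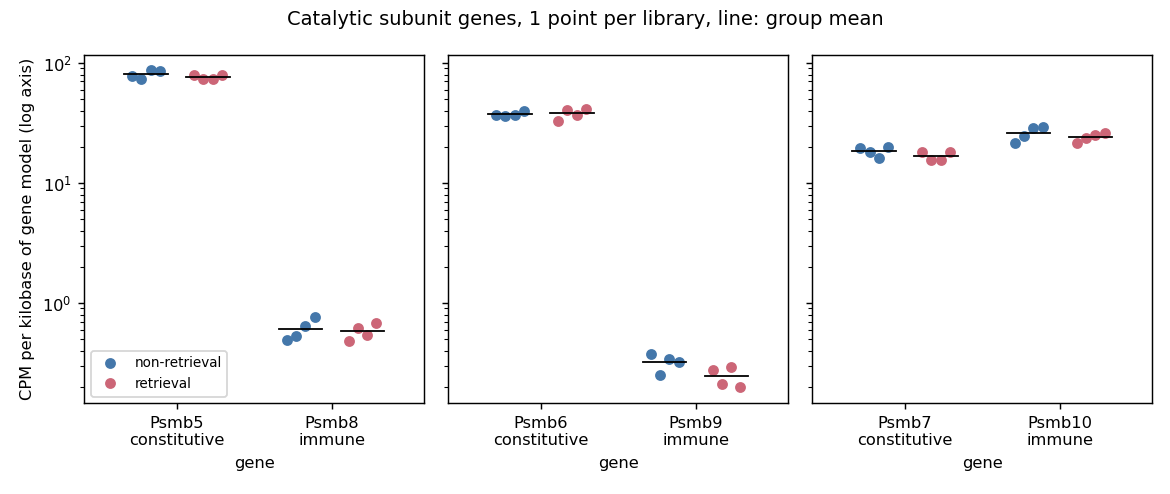
Levels in CPM per kilobase of gene model, on a log axis, of the constitutive catalytic genes Psmb5, Psmb6 and Psmb7 and of their immune counterparts Psmb8, Psmb9 and Psmb10, with 1 point per library and a line at each group's mean. Psmb8 and Psmb9 lie far below Psmb5 and Psmb6 in all 8 libraries, Psmb10 lies near Psmb7, and the groups overlap for each gene.

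PA28 is a ring of Psme1 and Psme2 subunits that caps the core particle. Psme1 was steady at 23.3, 23.7, 24.8 and 25.0 CPM in the non-retrieval libraries and 23.9, 23.2, 23.2 and 24.6 CPM in the retrieval libraries, with a log2 fold change of -0.03 (SE 0.07, adjusted p = 0.870). Its partner is annotated at 2 places of the GRCm38 build: Psme2, a spliced gene at chr14:55587441-55591113, and Psme2b, an intronless copy at chr11:48945354-48946190. Their coding sequences, both 717 bases long in GENCODE M21, differ at 5 positions, an identity of 99.3%. The stretch below, coding bases 424 to 543 of each, is shown because it holds 3 of the 5 differences. It is given 5′ to 3′ with the differing bases in capitals, 3 in 120, and elsewhere the copies are identical for up to 311 bases in a row. For Psme2 it is spliced from the minus strand of chr14:55588049-55588449, and for Psme2b it is the minus strand of chr11:48945576-48945695.
Psme2: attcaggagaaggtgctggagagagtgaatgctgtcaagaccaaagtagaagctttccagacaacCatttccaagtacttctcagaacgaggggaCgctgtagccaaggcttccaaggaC
Psme2b: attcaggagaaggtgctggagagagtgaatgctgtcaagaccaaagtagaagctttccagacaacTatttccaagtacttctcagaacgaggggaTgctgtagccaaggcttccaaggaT

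Of the 618 windows of 100 bases in the coding sequence, 307 (49.7%) are identical between the copies. No source used here says how the authors counted reads that match both places, and the values of the separate copies are uncertain for that reason. Psme2 was counted at 6.48, 6.52, 10.4 and 9.02 CPM in the non-retrieval libraries and at 8.41, 9.12, 8.89 and 5.25 CPM in the retrieval libraries. Psme2b was counted at 5.67, 6.68, 3.60 and 4.61 CPM and then at 5.05, 4.58, 4.60 and 7.21 CPM. The copies mirrored each other: Psme2 was lowest in retrieval library 4, where Psme2b was highest, and highest in non-retrieval library 3, where Psme2b was lowest. The share of Psme2b in the sum ran from 25.8% to 57.8%.

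Added together, the copies varied much less. The sum was 12.1, 13.2, 13.97 and 13.6 CPM without retrieval and 13.5, 13.7, 13.5 and 12.5 CPM with it. Its coefficient of variation over 8 libraries was 4.78%, beside 21.6% for Psme2 and 22.9% for Psme2b alone and 3.15% for Psme1. The log2 fold change of the sum was 0.0044 (SE 0.08, 95% interval -0.17 to 0.18), while the separate genes gave -0.03 (SE 0.17) and 0.06 (SE 0.18). The adjusted p was 0.986 for the sum, 0.941 for Psme2 and 0.889 for Psme2b.

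**Figure D4:**
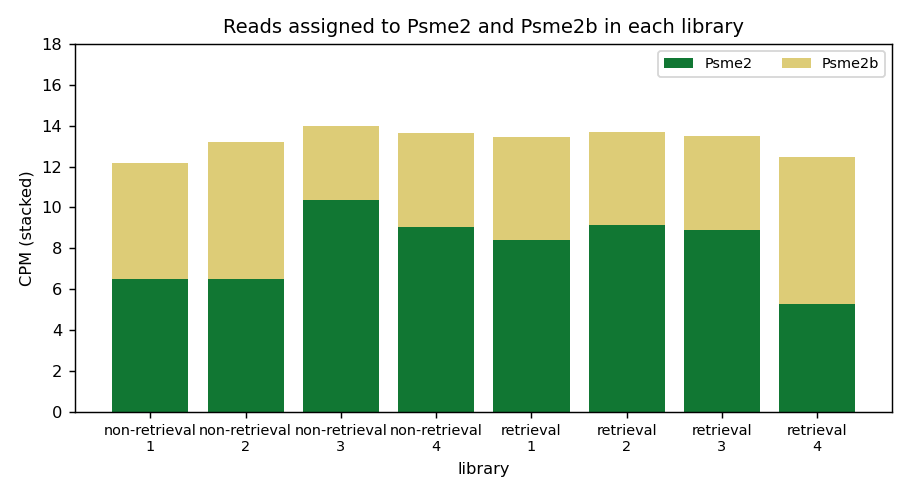
Stacked bars of the level in CPM of Psme2 and Psme2b in each of the 8 libraries, 4 per group, with the height of a bar giving the sum. The part from Psme2b is tallest where that from Psme2 is shortest, in retrieval library 4, and the sum stays between 12.1 and 13.97 CPM in both groups.

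Among the other activators and inhibitors, Psmf1 came closest to a call of all 48 members. It encodes PI31, a protein that binds the core particle, first described as an inhibitor and known in neurons as an adaptor for the axonal transport of proteasomes. The gene lies on the minus strand at chr2:151715812-151744186 (GRCm38, ENSMUSG00000032869). Its level was 37.5, 39.0, 37.2 and 40.8 CPM in the non-retrieval libraries and 34.4, 33.5, 33.2 and 33.5 CPM in the retrieval libraries. All retrieval libraries were below all non-retrieval libraries, and the retrieval values lay close together (38.6 ± 1.65 against 33.6 ± 0.516 CPM, SD, n = 4). The log2 fold change was -0.20 (SE 0.07, 95% interval -0.34 to -0.06), with an unadjusted p of 0.00763 and an adjusted p of 0.105 in edgeR. It passed 0.05 in limma-voom (adjusted p = 0.0371), where 3.04% of all genes were called lower, and with the length and GC offset (adjusted p = 0.0191), where 3.14% were. With the replicate number as a block in edgeR its adjusted p was 0.0434, where 3.09% of all genes were called lower. With block and offset it was 0.0156, where 4.91% were. It did not pass in DESeq2 (adjusted p = 0.0588), nor in edgeR without any 1 library (adjusted p 0.0839 to 0.276). Psme3, the nuclear PA28 gamma subunit, and Psme4, the activator PA200, both had -0.08, with adjusted p of 0.519 and 0.614.

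The assembly chaperones, which bring subunits together and leave the finished particle, were centred near 0, with a median of -0.01 over 7 genes. Of the chaperones of the regulatory particle, Psmd5 had the smallest p. It was at 48.1, 40.9, 44.2 and 39.4 CPM in the non-retrieval libraries and at 51.4, 45.2, 43.0 and 40.5 CPM in the retrieval libraries, with overlapping groups, a log2 fold change of 0.06 and an adjusted p of 0.745. Of the core particle chaperones it was Psmg2, at 11.4, 10.3, 12.3 and 11.2 CPM and then at 10.4, 10.4, 10.2 and 10.2 CPM. The retrieval values of Psmg2 were nearly equal and overlapped the non-retrieval range only at its lowest library (log2 fold change -0.14, SE 0.09, adjusted p = 0.440). Psmc3ip, the meiotic factor, was at 1.80, 1.81, 2.03 and 1.48 CPM and then at 1.38, 1.49, 1.42 and 1.63 CPM, with overlapping groups, an adjusted p of 0.507 and 385 exonic bases shared with the opposite-strand gene Mlx.

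Several genes from a list of direct and indirect regulators of proteasome genes were called. Transcription of subunit genes is raised by the CNC factors Nfe2l1 (NRF1) and Nfe2l2 (NRF2), which bind DNA with small Maf proteins. Of the 12 genes on this list, 5 were called higher and 0 lower, beside 3.67% and 0.902% of all tested genes. Their median log2 fold change was 0.22, and the list also holds Keap1 and Bach1, which were not called. The list was chosen with earlier results of these data known, so these counts are a description and not a test. Maff, a small Maf protein, rose from 1.13, 1.49, 1.497 and 1.21 CPM to 3.87, 2.09, 3.94 and 2.54 CPM, a log2 fold change of 1.23 (SE 0.23, adjusted p = 0.00516). Nfe2l2 rose from 9.30, 7.68, 8.38 and 8.68 CPM to 11.9, 11.3, 10.5 and 11.3 CPM, a change of 0.41 (SE 0.09, adjusted p = 0.0208). Mafg, another small Maf protein, rose by 0.25 (SE 0.07, adjusted p = 0.0401), Foxo4, a forkhead factor tied to subunit expression, by 0.33 (SE 0.08, adjusted p = 0.0292), and the cytokine-activated factor Stat3 by 0.23 (SE 0.06, adjusted p = 0.0419). For each of these 5 genes every retrieval library was above every non-retrieval library, as for 1103 of all 16745 tested genes. The 5 were named because they were called in the same libraries, so this separation adds no separate evidence. Nfe2l1, named here after its value was seen, was the most abundant and did not differ beyond its spread, at 440.1 ± 12.1 CPM without retrieval and 441 ± 14.2 CPM with it (log2 fold change 0.0039, 95% interval -0.11 to 0.12, adjusted p = 0.980).

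Maff kept its call whichever library was left out, with adjusted p up to 0.0252. Nfe2l2 lost its call without non-retrieval library 2, 3 or 4 or retrieval library 4 (adjusted p 0.0584 to 0.0674). Mafg lost it without any library other than non-retrieval 3 and retrieval 1 (0.0828 to 0.136) and under upper-quartile scaling (0.0743). Foxo4 lost it without any library other than non-retrieval 2 and retrieval 1 (0.0575 to 0.0968). Stat3 lost it without any library other than retrieval 1 (0.0760 to 0.163), under upper-quartile scaling (0.0783) and with the length and GC offset (0.0994).

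Of 19 partners of the proteasome without a Psm name, 1 was called higher and 0 lower, beside 3.67% and 0.902% of all tested genes. The called gene was Midn, midnolin, a protein known to carry products of activity-induced genes to the proteasome without ubiquitin. Midn was at 56.9, 65.9, 60.1 and 61.2 CPM in the non-retrieval libraries and at 108, 121, 106 and 128 CPM in the retrieval libraries. The groups lay far apart (61.1 ± 3.72 against 116 ± 10.5 CPM, SD, n = 4), and the log2 fold change was 0.93 (SE 0.07, adjusted p = 6.56e-07). It was called whichever library was left out. DESeq2 called 2 of the 19 and limma-voom 3, beside 6.3% and 9.67% of all tested genes. Besides Midn the called partners were, named after their values were seen, Ddi2 in DESeq2 and the deubiquitinases of the regulatory particle, Usp14 and Uchl5, in limma-voom. Ddi2, the protease that activates NRF1, is also on the list of regulators above. It differed by 0.20 on the log2 scale, with an adjusted p of 0.0892 in edgeR and 0.0393 in DESeq2. Usp14 was at 129, 115, 116 and 114 CPM without retrieval and at 124, 85.9, 97.2 and 99.4 CPM with it, and Uchl5 was at 34.8, 29.4, 37.6 and 33.2 CPM and then at 32.5, 27.5, 27.9 and 26.9 CPM. Both had overlapping groups. Their log2 fold changes were -0.22 and -0.23, with adjusted p of 0.199 and 0.157 in edgeR and 0.0236 and 0.0269 in limma-voom. Usp14 also passed with the length and GC offset (adjusted p = 0.0184).

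**Figure D5:**
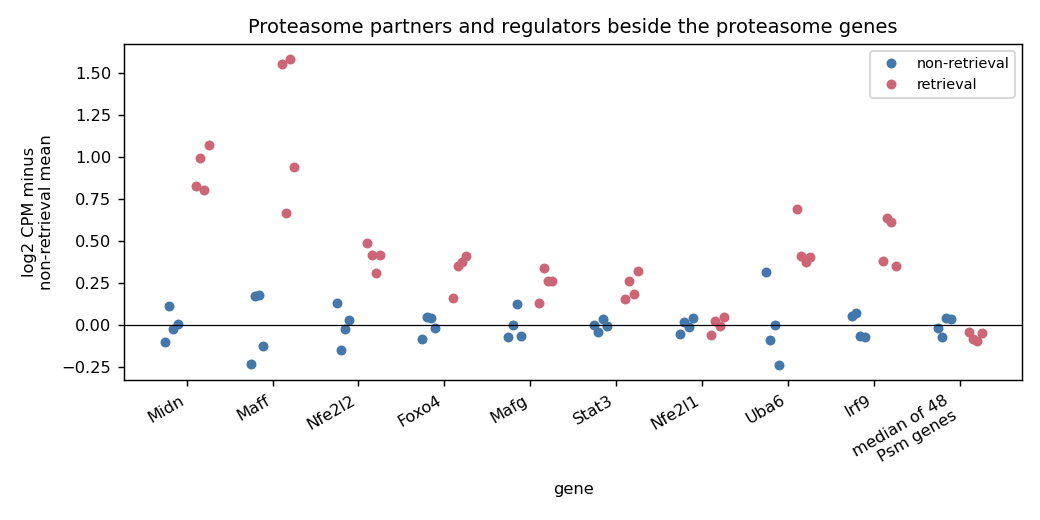
Log2 CPM of each library minus the mean of the non-retrieval libraries, for called regulators and partners, for Nfe2l1, Uba6 and Irf9, and for the median over the 48 proteasome genes. The highest retrieval points are those of Maff and Midn, and those of Nfe2l1 overlap the non-retrieval points. The retrieval points of the proteasome median, between -0.09 and -0.04, overlap its non-retrieval points, which run from -0.07 to 0.04.

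The steps upstream of the proteasome were mostly without a call, beside 3.67% of all tested genes called higher by edgeR and 0.902% called lower. The edgeR counts of the lists below were near these shares. Of 20 ubiquitin genes and entry enzymes, 1 was called higher and 0 lower: Uba6, an activating enzyme for ubiquitin and FAT10, averaged 18.9 ± 3.16 CPM without retrieval and 26.02 ± 2.77 CPM with it (SD, n = 4). Its log2 fold change was 0.46 (SE 0.11, edgeR adjusted p = 0.0237). Without non-retrieval library 2, 3 or 4 its adjusted p was 0.0660 to 0.0900. Of 19 ubiquitin ligases studied at synapses, edgeR called 0, with 3 at an unadjusted p under 0.05, beside 18.5% of all tested genes. DESeq2 and limma-voom called 3 each, beside 6.3% and 9.67% of all tested genes. Mdm2, the ligase of p53 and PSD-95, had the smallest edgeR p of the 19 ligases (log2 fold change 0.25, adjusted p = 0.0598). Of 20 interferon and MHC class I genes, which include known companions of the immunoproteasome, 1 was called higher and 0 lower, and the median was -0.07. The called gene was Irf9, the DNA-binding part of the interferon-activated complex, at 5.93 ± 0.313 CPM without retrieval and 8.39 ± 0.867 CPM with it (SD, n = 4). It rose by 0.50 on the log2 scale (SE 0.11, edgeR adjusted p = 0.0148). Without non-retrieval library 3 or 4 or retrieval library 3 its adjusted p was 0.0528 to 0.0573.

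The promoters of the members were read for the binding motifs of these factors, in RefSeq windows of the GRCm38.p6 build from 250 bases before to 50 bases after the start site. Windows were found for 41 of the 48 members, 44 windows in all. The antioxidant response element bound by CNC and Maf factors, searched as TGACNNNGC on both strands, occurred in 6 of 44 windows (13.6%) and in 12.4% of 32851 windows of all genes. These windows belonged to Psmb5, Psmb6, Psmc6, Psmd12, Psmd9 and Psme4, whose log2 fold changes were -0.09, 0.03, -0.11, -0.02, -0.05 and -0.08. Examples from both catalytic genes among them and from the activator PA200 follow 5′ to 3′ on the strand of the gene with the motif in capitals, which in Psme4 is on the other strand. They lie at chr14:54618019-54618057 (minus) for Psmb5, at chr11:70525333-70525371 (plus) for Psmb6 and at chr11:30771753-30771791 (plus) for Psme4.
Psmb5: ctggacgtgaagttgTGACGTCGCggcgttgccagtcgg
Psmb6: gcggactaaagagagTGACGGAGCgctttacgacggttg
Psme4: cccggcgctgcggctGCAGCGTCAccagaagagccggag

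The interferon-stimulated response element, searched on both strands as TTTC, any 2 bases and TTTC again, occurred in 5 of the 44 windows (11.4%) and in 3.44% of all windows. It was found for Psmb3, Psmd4, Psmd9, Psme1 and Psmg4, and these letters were not in the windows of Psmb8, Psmb9 or Psmb10. The match of Psme1, an interferon-inducible gene, is at chr14:55578488-55578527 (plus) and is shown with the motif in capitals.
Psme1: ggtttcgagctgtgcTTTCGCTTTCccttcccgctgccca
The log2 fold changes of the 5 genes with this motif were 0.08, -0.07, -0.05, -0.03 and -0.0039, and none of them was called. A match in these windows is a description of the sequence and does not show that a factor binds there.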

How the data were processed

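Bulk RNA-seq of 8 libraries was used, 4 per group. The authors deposited unnormalized counts of reads for each gene, made with HISAT2 2.0.5, featureCounts 1.5.0-p3 and GRCm38, per the submitters' processing notes. Not given in the sources used here are the annotation release, the strand setting and the handling of multi-mapping reads. All columns were matched to samples by title, and groups follow the labels.

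The members and all gene lists were chosen with earlier results of these data known. Genes passing filterByExpr (16745) were fitted in edgeR 4.0.16 (R 4.3.3) with TMM scaling and a two-sided quasi-likelihood test. P-values were adjusted by Benjamini-Hochberg over all tested genes, and a gene was called at an adjusted p under 0.05. CPM use the same scaling, and levels between genes use CPM per kb of the deposited gene length, which equals the union of GENCODE M21 exons for 45 of 48 members. Per-library values are given for the member with the smallest p in each role, the catalytic genes, the members with the highest and lowest level per length and, after their values were seen, Psme2 and Psme2b. From the related lists, every called gene is named, and otherwise the gene with the smallest p.

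Alternatives were RLE and upper-quartile scaling, no filter, a minimum of 10 reads, DESeq2 1.42.0, limma-voom 3.58.1 with quality weights, reads thinned to 25013503 per library, a replicate block, a loess offset (span 0.5) for length and GC, both together, an adjusted p under 0.10, and leaving out each library. Principal transcript lengths and the sum of Psme2 and Psme2b were added after seeing the data.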

Additional observations from a re-analysis of the deposited data

Results flagged for a closer look

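Values of 54 groups of 4 libraries were examined for 1 library far from the other 3, and chance alone marks about 1 in 20 such groups. There were 3. Psma1, an alpha subunit, was at 59.98 CPM in non-retrieval library 2, below the other non-retrieval libraries at 64.2 to 64.7 CPM. Psmd1, the scaffold of the regulatory base, was at 109.6 CPM in non-retrieval library 1, above the others at 99.1 to 100.5 CPM. Psmd1 was likewise at 109.1 CPM in retrieval library 1, above the others at 91.4 to 92.7 CPM. Neither gene was called by any of the fits run.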

How the results depend on the processing

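No proteasome gene was called higher under any alternative run. The count called lower was 0 and became 1, Psmf1 each time, with limma-voom, with the length and GC offset, with the replicate block and with the block and offset together. The replicate numbers were not used as pairs in the main fit, because no label says that they pair libraries. Libraries with the same number correlated at 0.221, 0.085, 0.027 and 0.1 after removal of group means. All 4 libraries of each group correlated best with their own number, a hint from the data and not from the design. With the block Psmf1 had an adjusted p of 0.0434, and with block and offset 0.0156. Among the partners the block also brought adjusted p of 0.0102 for Usp14, 0.0452 for Uchl5 and 0.0117 for Ddi2. Without 1 library the adjusted p of Psmf1 ran from 0.0839 to 0.276. All tested genes called numbered 766, and became 1619 with limma-voom, 1360 with the offset, 1791 with the block, 1922 with block and offset, and 1173 at an adjusted p under 0.10. Without 1 library they numbered 330 to 1360: 330 without non-retrieval 4, 331 without non-retrieval 3, 397 without retrieval 4, 420 without retrieval 3 and 1360 without retrieval 1. The share of higher calls was 80.3% and became 61.3% with the offset.

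With the offset alone the median of all members was -0.036. Without 1 library it was -0.090 to -0.043, and the regulatory median -0.087 to -0.036, both smallest without non-retrieval 3. The core median was -0.030 with block and offset, and the immunoproteasome median was -0.14 to 0.0014 without 1 library. Values near 0 changed sign: Psmd5 was -0.0029 with limma-voom and -0.0016 to 0.12 without 1 library, Psmb6 was -0.018 to 0.10 without 1 library, and Psmb8 was 0.022 with limma-voom and -0.15 to 0.071 without 1 library. The value of Psme2 became 0.0044 when its copy was added. With principal transcript lengths Psmb8 was 1.26% of Psmb5 and Psmb10 63.0% of Psmb7. The cause of these shifts was not tested. The number of members with negative values was 34 to 43 over the other scalings and tools and 37 to 43 without 1 library. Depth limits Psmb8, Psmb9 and Psmc3ip most, with fewer than 100 reads in each library.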
